A study of Mus musculus with 8 samples.

Results

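The genes described here encode the proteins of the cytosolic ribosome. They were taken as every gene symbol in the count tables made of Rpl or Rps, an optional p, a number and up to 2 lower case letters, with Rpsa added and pseudogene symbols that contain -ps left out. This gave 86 genes of 55291, of which 53 belong to the large subunit and 33 to the small subunit. All 86 passed the filter on low counts. The pattern leaves out a few other genes of ribosomal proteins, Rps3a1, Fau and Rack1 among them, and it takes in 10 genes that are named as paralogues or copies of another member, Rpl39l among them. Of the members, 4 (Rpl37rt, Rps4l, Rpl32l and Rpl6l) are pseudogenes in the gene annotation.

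The 8 RNA-seq libraries came from a pair of mouse embryonic stem cell lines, DHX35-dTAG and GPATCH1-dTAG, each named for the endogenous protein that was fused to an FKBP12 F36V degron. The compound dTAG-13 recruits a ubiquitin ligase to this tag. The 4 groups, of 2 libraries each, were DMSO and dTAG-13 (200 nM, 4 h) in either line. DHX35 is an RNA helicase and GPATCH1 its G-patch partner in the control of pre-mRNA splicing. All groups carry a tag. The labels name the cell line as E14, the growth protocol mentions R1 cells, and neither source names the clones, so a difference between the lines cannot be told apart from a difference between clones. No untagged line treated with dTAG-13 was analysed here. The labels do not say whether the 2 libraries of a group came from separate cultures, so a p-value measures only the spread between them. RNA of both targets was found in every library. Dhx35 lay between 58.1 and 84.8 CPM (counts scaled to library size), and Gpatch1 at 23.2 to 25.6 CPM in DHX35-dTAG cells and 6.90 to 7.31 CPM in GPATCH1-dTAG cells. The tag acts on the protein, so these mRNA levels do not show the depletion. All 8 pluripotency markers exceeded 1 CPM in every library, and they summed to 5183 to 5827 CPM. The 5 fibroblast markers summed to 2.56 to 5.76 CPM and 4 endoderm markers to 2.57 to 4.39 CPM. The sums were 51.6 to 69.5 CPM for 4 trophoblast, 14.01 to 19.4 CPM for 3 neural and 14.6 to 17.7 CPM for 3 mesoderm markers. Of these lists, 1 fibroblast, 0 endoderm, 3 trophoblast, 3 neural and 2 mesoderm markers exceeded 1 CPM in every library.

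A ribosome holds 1 copy of most of these proteins, and the stalk proteins Rplp1 and Rplp2 are known exceptions. Cells make them in balance, and growth signals through the mTOR kinase regulate the translation of their mRNAs as a group. The mRNAs typically begin with a C followed by a tract of pyrimidines (the 5′ terminal oligopyrimidine tract), which the protein LARP1 recognises. Many of these genes also carry small nucleolar RNA genes in their introns. Dividing stem cells need a steady supply of ribosomes, and the mRNAs are among the most abundant ones in such cells. The genome also holds many processed copies of these genes, some of which are expressed and make a protein, as Rpl10l and Rpl39l do in the germ line.

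The start sites of the genes were searched for this tract. RefSeq promoters (GRCm38.p6, 250 bases before to 50 after each start) were found for 64 of the 86 members, with 76 start sites. A C at the start followed by at least 4 C or T was present at 15 of the 76 start sites (19.7%), against 2.51% of all 32851 promoters in the table. A run of 8 or more C or T within 20 bases of the start was present at 40.8%, against 16.0% of all. TATAAA, searched 40 to 16 bases before the start, was found at none of the 76 and at 1.99% of all. Each pattern was searched on the transcribed strand, and the first 2 patterns overlap. The windows below hold 15 bases on each side of a start, with the longest run of C and T in capitals. They show 5 members with the typical start, and then Rpl39 and Rpl39l, the pair on which the line comparison turns.
Rps18 (chr17:33955651-33955680, minus strand): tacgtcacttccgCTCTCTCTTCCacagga
Rps6 (chr4:86857353-86857382, minus strand): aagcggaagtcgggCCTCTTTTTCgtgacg
Rpl38 (chr11:114668565-114668594, plus strand): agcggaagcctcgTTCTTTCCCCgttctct
Rplp2 (chr7:141447636-141447665, plus strand): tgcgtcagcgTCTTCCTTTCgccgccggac
Rpl35 (chr2:39005117-39005146, minus strand): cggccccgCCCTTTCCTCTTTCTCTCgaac
Rpl39 (chrX:37085208-37085237, minus strand): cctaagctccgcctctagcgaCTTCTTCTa
Rpl39l (chr16:10170213-10170242, plus strand): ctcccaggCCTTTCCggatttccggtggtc
The runs at Rps18, Rps6 and Rpl38 are 11, 10 and 10 bases long and cross the annotated start. At Rpl39 the run of 8 bases lies after the annotated start, and at Rpl39l the run of 7 bases ends just before it, so neither has a C followed by pyrimidines at its annotated start.

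Rpl39 and Rpl39l encode near-identical small proteins of the large subunit that lie in the exit tunnel for the growing peptide. Their coding sequences (GENCODE M21, GRCm38) are 156 bases each with the stop codon and are the same at 85.3% of positions. The 23 positions that differ are in capitals, and 16 of these are the third base of a codon.
Rpl39 (chrX:37082701-37085127, minus strand, 3 coding exons): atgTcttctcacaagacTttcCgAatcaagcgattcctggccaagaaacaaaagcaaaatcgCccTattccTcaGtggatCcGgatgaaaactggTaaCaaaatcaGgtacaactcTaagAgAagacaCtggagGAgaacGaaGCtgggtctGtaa
Rpl39l (chr16:10174310-10174465, plus strand, 1 coding exon): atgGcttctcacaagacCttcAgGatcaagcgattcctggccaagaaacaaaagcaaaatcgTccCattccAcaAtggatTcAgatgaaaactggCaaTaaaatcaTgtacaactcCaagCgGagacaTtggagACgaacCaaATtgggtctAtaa
No stretch of 100 bases of the Rpl39l transcript (805 bases, 3 exons) occurs in a transcript of another gene, and no annotated exon of another gene overlaps it. For Rpl39, 1.75% of such stretches occur elsewhere. The pair shares none.

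The question for the group as a whole was how large its share of the RNA was, and whether that share moved with depletion. In DHX35-dTAG cells the members took 4.75% and 4.30% of the counts in DMSO and 3.99% and 3.53% in dTAG-13. In the GPATCH1-dTAG line they took 4.22% and 3.44% in DMSO and 4.54% and 4.34% in dTAG-13. The shares thus lay lower in dTAG-13 in DHX35-dTAG cells and higher in GPATCH1-dTAG cells, in both lines without overlap between the groups. The 2 genes of highest counts, Gm23935 and CT010467.1, took 1.27% to 20.9% of the counts and had their highest values in the libraries with the lowest shares. With these 2 genes left out of the total, the shares in DHX35-dTAG cells were 4.91% and 4.37% in DMSO and 4.53% and 4.42% in dTAG-13, and the groups overlapped. In GPATCH1-dTAG cells they were then 4.405% and 4.34% in DMSO and 4.603% and 4.43% in dTAG-13, without overlap. The summed level after scaling (TMM) was 39168 CPM in the lowest and 44830 CPM in the highest library, both from DHX35-dTAG cells in DMSO. The other 6 libraries lay between 40030 and 42223 CPM. Total counts ranged from 12014203 to 14994173, and 95% Wilson intervals of the shares, which cover counting error only, were narrower than the differences between replicates. All levels are relative to the other RNA in a library, so less ribosomal protein mRNA per cell and fewer cells that hold it cannot be told apart here. The human RNA added as a spike-in was not used here.

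Levels of single members were compared per kb of transcript. The median was 628 CPM per kb (mean of the 8 libraries), and the middle 50% of the members lay between 385 and 815. The 5 highest were Rps12, at 1680 CPM per kb, the stalk protein Rplp1 at 1577, Rps2 at 1395, Rpl8 at 1212 and Rpl41, which encodes the smallest ribosomal protein, at 1199. The 5 lowest were Rpl3l at 0.75 CPM per kb, Rpl24 at 3.28, Rpl32l at 4.44, Rpl6l at 4.68 and Rpl36al at 6.45. Below 100 CPM per kb lay 13 members, and the genes among them differed in kind. They included 7 paralogues or copies (Rpl10l, Rpl39l, Rpl37rt, Rps27rt, Rpl6l, Rpl32l and Rpl3l) and 4 members that share more than 50% of their transcript bases with an exon of another annotated gene on the same strand. The other two were Rps15a, whose gene model of 5130 bases is long for its coding sequence, and Rpl29, with 50.1% of its 100-base stretches in other genes.

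Among the low members were Rpl24, Rpl13a and Rps10, core constituents of the ribosome, and Rpl36al, a paralogue of Rpl36a. Rpl24 shares 71.5% of its bases with Gm28037 and lay at 3.28 CPM per kb, or 20 to 45 counts in a library. Rpl36al shares 63.1% with Gm49383 and lay at 6.45 CPM per kb. Rpl13a shares 59.3% with Gm45713 and lay at 44.5 CPM per kb, and Rps10 shares 53.6% with the readthrough gene RPS10-NUDT3 and lay at 21.6 CPM per kb. Rpl13a ranked 76, Rps10 79, Rpl36al 82 and Rpl24 85 of 86. Of the overlapping genes, Gm28037 and Gm45713 were at 0 counts in every library and Gm49383 at 0 to 4 counts, and RPS10-NUDT3 was not analysed here. A count of 0 in a library of this size allows up to 3 counts. On the opposite strand, 4 members share at least 30% of their bases with an exon of another gene (Rpl35, Rpl23a, Rpl5 and Rpl30) and lay at 301 to 765 CPM per kb. Across the 86 members, Pearson's r between the share of 100-base stretches found in other genes and the log2 level was 0.08 and Spearman's rho 0.08, and near-identical copies make these members' counts uncertain. The 31 members with at least 50% of stretches shared, after same-strand overlaps and paralogues were set aside, had a median of 699 CPM per kb, and the 42 others one of 673. How the authors' counting treated reads that fall on 2 genes is not given in the sources used here, and its part in these levels was not tested.

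**Figure D1:**
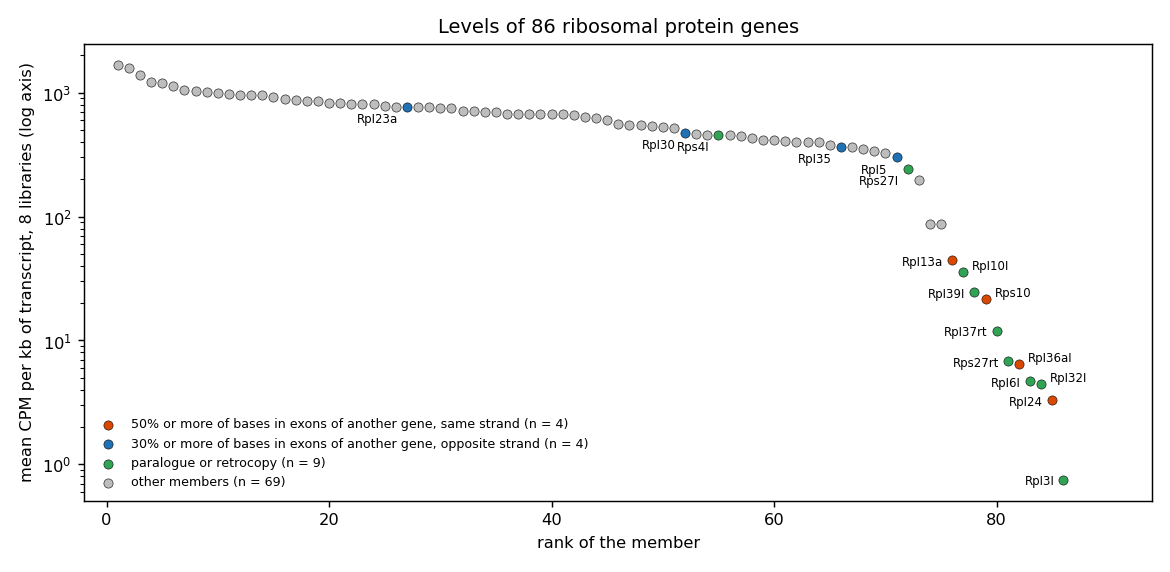
Mean level of the 86 members per kb of transcript (vertical, log axis) against their rank (horizontal), each point a gene coloured by overlap with other genes. The 4 members with same-strand overlap of at least 50% lie between 3.28 and 44.5 CPM per kb, and the 4 with opposite-strand overlap lie between 301 and 765.

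Before the comparisons between groups, the libraries were compared with each other over the members. The first DMSO replicate of the DHX35-dTAG line was unlike the rest. It held the highest or the lowest value of all 8 libraries for 72 of the 86 members (40 highest, 32 lowest), against 8 to 19 members for the other libraries. The log2 difference of a member in that library from its mean in the other 7 had a standard deviation over the members of 0.55, against 0.10 to 0.14 for the other libraries. It exceeded 0.5 in either direction for 23 members (26.7%), and for at most 2 in any other library. Over all 16371 genes tested it did so for 21.3% in that library and for 2.85% to 5.05% in the others. The mean correlation with the other libraries over the log2 levels of the members was 0.972, against 0.994 to 0.995.

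The deviation of that library went both ways among the members. Rpl37a, a zinc-binding protein of the large subunit, was at 946 CPM in it and at 346 to 413 CPM in the other 7 libraries. Rpl31, which borders the peptide exit, was at 117 CPM and elsewhere at 401 to 432 CPM. Rps4x, of the small subunit, was at 1638 CPM against 861 to 1041 CPM. Each of these values lay far outside the range of the other 7 libraries, up for Rpl37a and Rps4x and down for Rpl31. Rpl5 and Rpl11, which bind the 5S rRNA together and hold back MDM2, moved in opposite directions, Rpl5 at 496 CPM against 606 to 666 CPM and Rpl11 at 695 CPM against 376 to 431 CPM. Of the stalk proteins, Rplp0 lay at 872 CPM against 972 to 1093 CPM, and Rplp2 at 761 CPM against 440 to 525 CPM. The large-subunit genes took 54.9% of the members' counts in that library and 56.9% to 57.5% in the other 7. Over the 86 members, Pearson's r of the deviation was -0.04 with GC content, 0.12 with transcript length, -0.16 with the share of stretches found in other genes, 0.04 with the number of exons and -0.09 with the number of snoRNA genes inside the gene. The points share 1 library, and the values describe it. Named pseudogenes of these genes held counts equal to 1.504% of the members' counts in that library and 1.43% to 1.53% in the others.

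**Figure D2:**
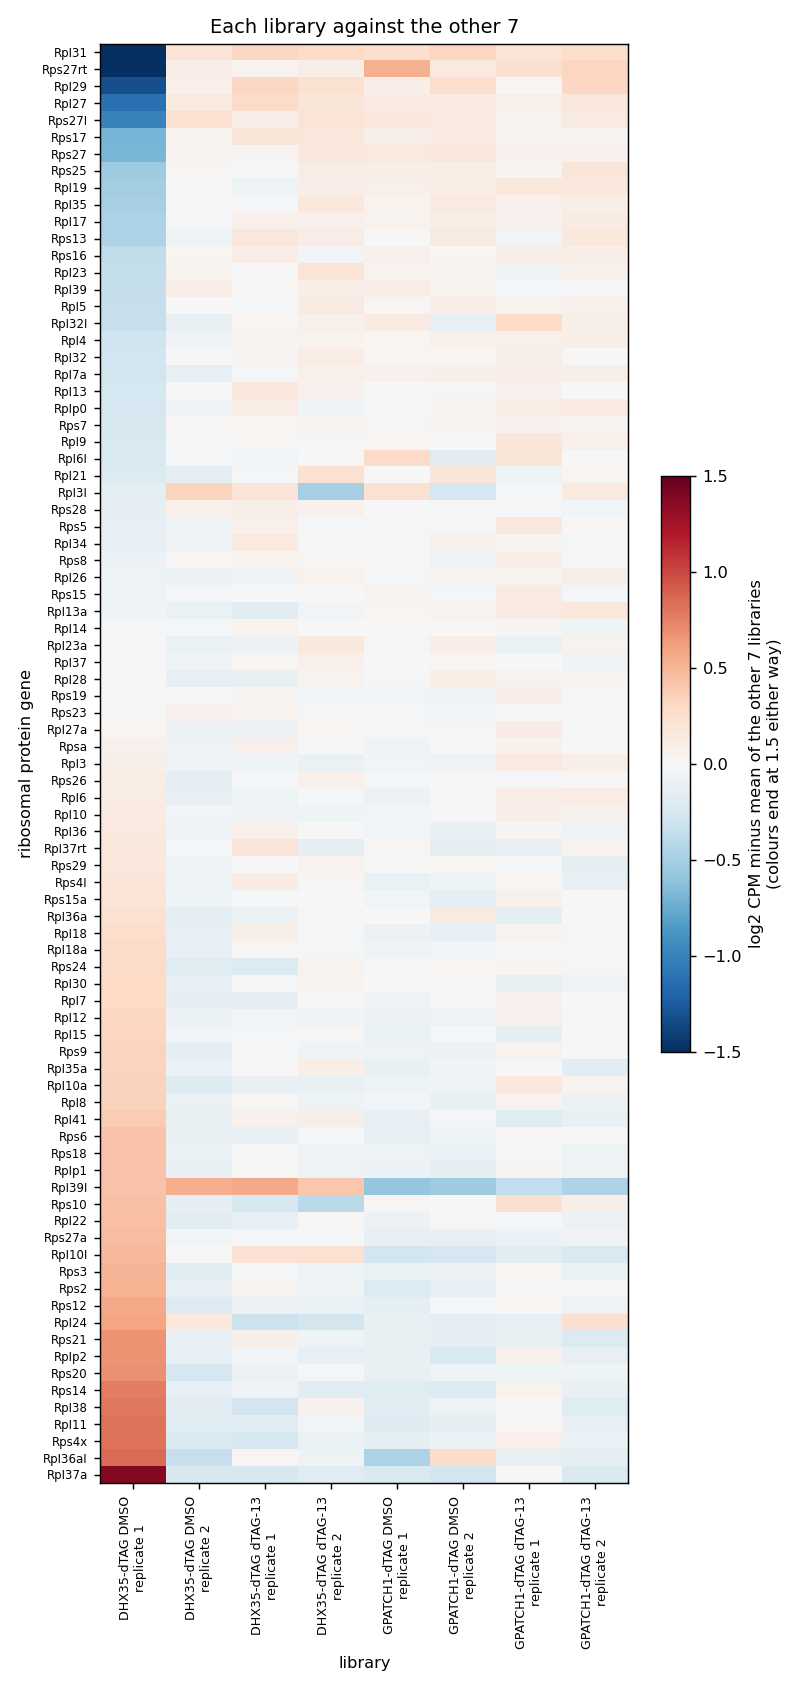
Log2 level of the members (rows, CPM plus 0.5, 85 of 86 drawn) in each of the 8 libraries (columns) minus its mean in the other 7, as colour from -1.5 to 1.5. Replicate 1 of DHX35-dTAG cells in DMSO runs from -1.83 (Rpl31) to 1.37 (Rpl37a), and Rpl39l changes colour between the lines in the other libraries.

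The spread of the members was then measured with and without that library. The ratio of a member's highest to its lowest library had a median of 1.35 over all 8 libraries and of 1.13 over the 7 others. It was below 1.2 for 22 members with all libraries and for 71 members without that one. In the 3 groups without that library, the median absolute log2 difference between replicates was 0.04 to 0.07 over the members and 0.03 to 0.09 over the 2284 tested genes above 100 CPM. Rpsa, the laminin receptor and a small-subunit protein, was at 1338 CPM in the lowest and 1467 CPM in the highest of the 8. Rps26 lay between 425 and 491 CPM, and Rps29 between 290.5 and 348 CPM. The highest ratio over the 7 libraries was 2.18, for Rpl3l, a muscle paralogue of Rpl3 with 7 to 21 counts in a library, followed by 2.05 for Rpl39l.

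The first comparison asked whether 4 h of DHX35 depletion changed the mRNAs of ribosomal proteins. No member passed an adjusted p of 0.05, with edgeR's quasi-likelihood test and Benjamini-Hochberg values over the 16371 genes tested. The background in that comparison was 0% of all genes. At an unadjusted p under 0.05 there were 7 of 86 members (8.14%) and 882 of all genes (5.39%), and DESeq2 also called no member. With no expression filter, 10 members were called (5 higher, 5 lower), against 1.06% of all genes. The median log2 difference (dTAG-13 minus DMSO) was -0.01 over the members and -0.01 over all genes. It was above 0 for 41 of the 86 members (47.7%) and for 48.5% of all genes, and ran from -0.85 for Rpl37a to 0.72 for Rpl31. The median standard error of a member was 0.12. The differences at both ends rested on the library that stood apart. For Rpl31, the DMSO libraries were at 117 and 402 CPM and the dTAG-13 libraries at 429 and 425 CPM. Its log2 difference was 0.72 (SE 0.41, adjusted p = 0.715), and 0.09 (SE 0.07, adjusted p = 0.991) without replicate 1 in DMSO. Rpl37a was at 946 and 356 CPM in DMSO and at 355 and 367 CPM in dTAG-13, a log2 difference of -0.85 (SE 0.34, adjusted p = 0.715), and of 0.02 (SE 0.08) without that replicate.

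After Rpl31, the highest positive differences among members whose groups did not overlap were those of Rpl29 (0.65, SE 0.30) and Rpl27 (0.52, SE 0.27), each with an adjusted p of 0.715. Rpl29 was at 26.5 and 62.4 CPM in DMSO and at 71.7 and 68.6 CPM in dTAG-13. Rpl27 was at 122 and 264 CPM in DMSO and at 286 and 269 CPM in dTAG-13. For both, as for Rpl31, 1 of the 2 DMSO libraries was low and the other close to the dTAG-13 libraries. Without the low library the differences were 0.17 (SE 0.10) and 0.07 (SE 0.07). Among members whose groups did not overlap, the lowest differences were those of Rpl24 (-0.72, SE 0.27), Rps10 (-0.44, SE 0.17) and Rpl10 (-0.10, SE 0.08), with adjusted p of 0.715, 0.715 and 0.734. Rpl24 was at 3.33 and 2.44 CPM in DMSO and at 1.71 and 1.77 CPM in dTAG-13. Rps10, which lies at the mRNA entry of the small subunit, was at 24.9 and 17.2 CPM in DMSO and at 16.3 and 14.7 CPM in dTAG-13. Rpl24 and Rps10 are 2 of the members whose bases overlap another gene. Without replicate 1 in DMSO their differences were -0.49 (SE 0.32) and -0.15 (SE 0.13), and that of Rpl10 was -0.02 (SE 0.06), each with an adjusted p of 0.991.

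Without that library, the members as a group lay above 0. Their median log2 difference was then 0.07, and 74 of 86 (86.05%) lay above 0, against a median of 0.00 and 50.6% for all 17037 genes tested. None was called, against 0.0117% of all genes. The median log2 level of the members varied between 2 replicates of a group with a standard deviation of 0.03. That is not the spread of a median of differences per member. The members' median deviation from the other libraries was 0.08 and -0.07 in the DHX35-dTAG DMSO replicates and 0.00 and 0.01 in dTAG-13. In GPATCH1-dTAG cells it was -0.02 and -0.02 in DMSO and 0.05 and 0.00 in dTAG-13. The lone DMSO library was assumed to vary like the other groups, and whether 0.07 exceeds that spread was not tested. When the other DMSO library was left out instead, so that replicate 1 stood alone for its group, 59 members were called (26 higher, 33 lower), as were 28.8% of all genes. The result of this comparison with a single DMSO library thus depended on which library was kept.

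The second comparison asked the same of GPATCH1 depletion. No member passed an adjusted p of 0.05, again against a background of 0% of all genes, and DESeq2 called none. The spread in this test was estimated over all 8 libraries, with the deviating DMSO replicate of the DHX35-dTAG line among them. With the 4 GPATCH1-dTAG libraries alone no member was called, against 127 of 15815 genes (0.803%). At an unadjusted p under 0.05 there were no members and 486 of all genes (2.97%). The median log2 difference was 0.03 over the members, with 60 of 86 (69.8%) above 0, and 0.00 over all genes, with 50.8% above 0. All 86 estimated differences lay between -0.13 and 0.20, each below 0.25 in size on the log2 scale. Their standard errors had a median of 0.12 and reached 0.42, so larger changes of single members are not excluded. Rpl3, which lies near the peptidyl transferase centre, was at 920 and 903 CPM in DMSO and at 1025 and 1002 CPM in dTAG-13. Its log2 difference of 0.15 (SE 0.08, adjusted p = 1.00) was the highest among members above 1 CPM whose groups did not overlap. Rpl10a (0.15, SE 0.13) and Rps10 (0.14, SE 0.17) followed. The lowest were Rpl36a (-0.13, SE 0.12), Rps29 (-0.08, SE 0.09) and Rps27 (-0.08, SE 0.17), all with an adjusted p of 1.00.

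None of the named proteins with a function beyond the ribosome was called in GPATCH1-dTAG cells. Rpl5 was at 619 and 652 CPM in DMSO and at 632 and 640 CPM in dTAG-13. Rpl11 was at 376 and 388 CPM in DMSO and at 431 and 393 CPM in dTAG-13. Their log2 differences were 0.00 (SE 0.11) and 0.11 (SE 0.22). Rps6, the ribosomal target of S6 kinase, was at 622 and 645 CPM in DMSO and at 684 and 672 CPM in dTAG-13, a log2 difference of 0.10 (SE 0.14). Rps27a, made as a fusion with ubiquitin, was at 372 CPM in both DMSO libraries and at 379 and 387 CPM in dTAG-13. Rpl22 was at 245 and 261 CPM in DMSO and at 254 and 244 CPM in dTAG-13. The groups overlapped for Rpl22 and Rpl5 and did not for Rps6, Rps27a and Rpl11, none of which was called.

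The responses of the lines were then set against each other in 1 model (an interaction term). No member was called, as no gene of 16371 was (0%), and 3 members (Rpl21, Rpl24 and Rps10) had an unadjusted p under 0.05 beside 640 of all genes. DESeq2 called no member. With no expression filter, 6 members were called (Rpl11, Rpl29, Rpl31, Rpl37a, Rps14 and Rps4x), against 0.429% of all genes. The members' differences between the responses ran from -0.77 to 0.98, with a median of 0.03. Without the first DMSO replicate of the DHX35-dTAG line, they ran from -0.34 to 0.68 with a median of -0.03.

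**Figure D3:**
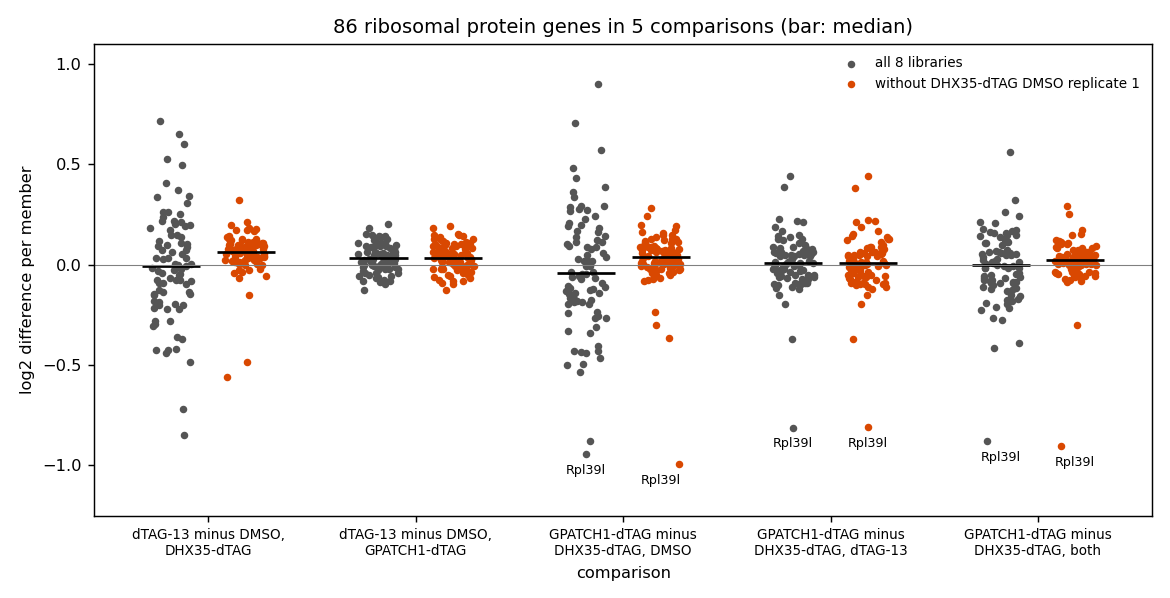
Log2 difference of each member (points) in 5 comparisons, with all 8 libraries (grey) and without the first DMSO replicate of the DHX35-dTAG line (orange), the bars being medians. Without that library the points draw together in every comparison that uses it, and Rpl39l stays apart in the 3 line comparisons.

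The third set of comparisons asked where the lines differ apart from the treatment. In DMSO, 1 member was lower in GPATCH1-dTAG than in DHX35-dTAG cells and none was higher, against 0.0916% of all genes called. In dTAG-13 none was called, against 0.0916% of all genes, with 4 members (4.65%) and 1386 of all genes (8.47%) at an unadjusted p under 0.05. DESeq2 called 1 member there, against 0.287% of all genes. Over both treatments 1 member was lower and none higher, against 0.666% of all genes. The called member was Rpl39l in each case, and DESeq2 called it in dTAG-13. Over both treatments the median difference of the members was 0.00, against -0.01 over all genes.

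Rpl39l was at 24.6 and 26.5 CPM in DHX35-dTAG cells in DMSO and at 26.8 and 24.1 CPM in dTAG-13. It was at 13.1 and 13.5 CPM in GPATCH1-dTAG cells in DMSO and at 14.9 and 14.04 CPM in dTAG-13. All 4 libraries of one line thus lay above all 4 of the other. The log2 difference (GPATCH1-dTAG minus DHX35-dTAG) was -0.94 (SE 0.11, adjusted p = 0.0285) in DMSO, -0.81 (SE 0.11, adjusted p = 0.0505) in dTAG-13 and -0.88 (SE 0.08, adjusted p = 0.00267) over both, a ratio of 0.544. Over both treatments it was called in 14 of 14 alternative analyses, at -0.91 to -0.84 with adjusted p up to 0.038. In DMSO alone it was called in 7 of 15 alternatives, with adjusted p from 1.35e-06 to 0.682, and in dTAG-13 alone in 5 of 15, with adjusted p from 6.99e-05 to 0.887. Without the first DMSO replicate of the DHX35-dTAG line, the difference over both treatments was -0.90 (SE 0.08, adjusted p = 3.98e-07). It was not called on either depletion. The log2 difference was -0.01 (SE 0.11, adjusted p = 0.992) on DHX35 depletion and 0.13 (SE 0.12, adjusted p = 1.00) on GPATCH1 depletion.

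Rpl39, the parent gene, was not called between the lines. It was at 174 and 229 CPM in DHX35-dTAG cells in DMSO and at 218 and 229 CPM in dTAG-13, and at 229 and 222 CPM and 214 and 216 CPM in GPATCH1-dTAG cells. Its log2 difference between the lines was 0.05 (SE 0.09, adjusted p = 0.788). Rpl39l held 12.4%, 10.4%, 10.9% and 9.53% of the pair's counts in the DHX35-dTAG line, DMSO first, and 5.41%, 5.73%, 6.52% and 6.10% in the GPATCH1-dTAG line. The lowest Wilson interval in DHX35-dTAG cells began at 8.51%, above the upper end of 7.36% of the highest in GPATCH1-dTAG cells. These intervals cover counting error only and not the spread between cultures. Counts of Rpl39l were 153 to 412 in a library. The 7 tested genes within 500 kb of Rpl39l on chromosome 16 differed between the lines by -0.65 (Tvp23a) to 0.13 (Emp2) on the log2 scale, and none was called. The nearest of them, Atf7ip2, differed by 0.05 (SE 0.10). Besides Tvp23a (SE 0.30), Dexi (-0.54, SE 0.15, adjusted p = 0.160) and Grin2a (-0.29, SE 0.21) were lower in GPATCH1-dTAG cells, as Rpl39l was. Clec16a (-0.04) and Nubp1 (-0.0006) lay near 0, and Emp2 and Atf7ip2 above it.

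Rpl10l, a paralogue of the X-linked Rpl10 with a single exon that takes its place in male meiosis, had the same direction without passing the test. It was at 48.8 and 36.3 CPM in DHX35-dTAG cells in DMSO and at 41.3 and 41.7 CPM in dTAG-13. It was at 30.5 and 31.03 CPM in GPATCH1-dTAG cells in DMSO and at 32.8 and 31.4 CPM in dTAG-13, so that the lines did not overlap. The log2 difference was -0.42 (SE 0.10, adjusted p = 0.111) over both treatments. It was called in 3 of 14 alternatives, at -0.51 to -0.30 over all of them. Without the first DMSO replicate of the DHX35-dTAG line it was -0.30 (SE 0.06) with an adjusted p of 0.00668. In that analysis 3 members were called, Rpl39l and Rpl10l lower and Rps10 higher (0.29, SE 0.08, adjusted p = 0.0376), against 5.29% of all genes. Rpl10 itself was at 625 to 705 CPM in DHX35-dTAG cells and at 638 to 690 CPM in GPATCH1-dTAG cells, a log2 difference of 0.03 (SE 0.06, adjusted p = 0.831). Rpl10l held 5.37% to 6.47% of the counts of that pair in DHX35-dTAG cells and 4.39% to 4.61% in GPATCH1-dTAG cells.

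Rpl39l and Rpl10l are known from germ cells, so the levels of germ cell markers are given beside them. All 4 markers on the list (Dazl, Ddx4, Sycp3 and Stra8) exceeded 1 CPM in every library. Their sum was 49.2 to 57.9 CPM in DHX35-dTAG cells and 59.5 to 64.3 CPM in GPATCH1-dTAG cells. Stra8, which is induced at the entry into meiosis, was the most abundant of the 4, at 25.5 to 26.8 CPM and 31.4 to 35.2 CPM (log2 difference 0.36, adjusted p = 0.0721). The differences of Dazl, Ddx4 and Sycp3 were -0.16, 0.19 and 0.15, and none of the 4 was called by edgeR. Their part in the levels of Rpl39l and Rpl10l was not tested.

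**Figure D4:**
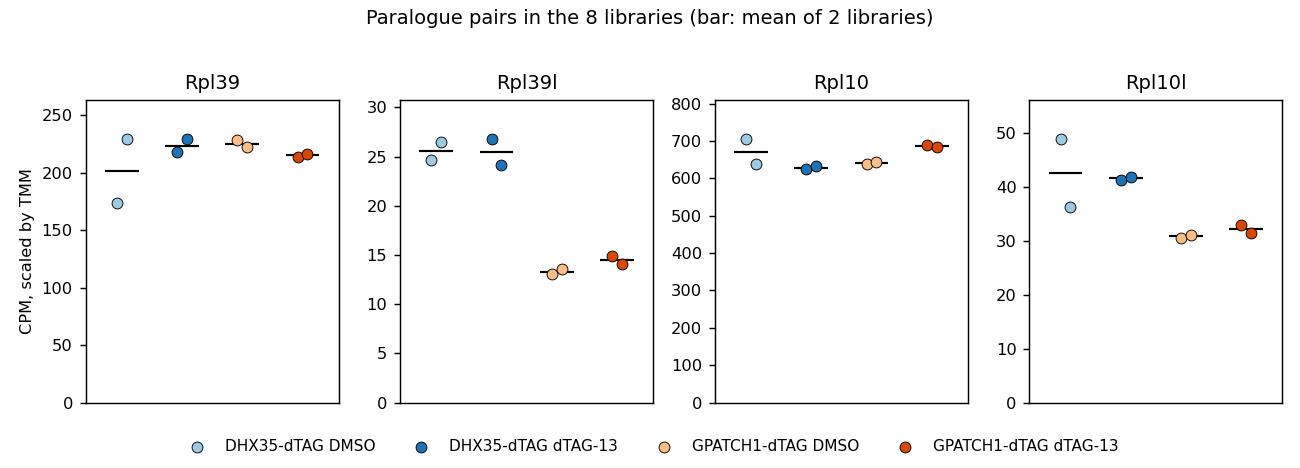
CPM of Rpl39, Rpl39l, Rpl10 and Rpl10l (vertical axes from 0) in the 2 libraries of each group (points), with the group mean (bar). Rpl39l lies at 24.1 to 26.8 CPM in the DHX35-dTAG line and at 13.1 to 14.9 CPM in the GPATCH1-dTAG line, while Rpl39 and Rpl10 do not separate the lines.

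None of the other paralogues was called between the lines. Rps4l, a single-exon gene that the annotation lists as a pseudogene, was the most abundant of them per kb at 455 CPM, and 2.03% of its 100-base stretches occur in other genes. It was at 336 to 403 CPM in the 8 libraries, with a log2 difference between the lines of -0.11 (SE 0.07, adjusted p = 0.477). It held 25.9% to 30.9% of the counts of the pair with Rps4x in 7 libraries, and 19.7% in replicate 1 of DHX35-dTAG cells in DMSO, where Rps4x was high. Rps27l, a p53-induced paralogue of Rps27, held 32.2% to 35.4% of its pair in 7 libraries and 28.6% in that same replicate. Its log2 difference between the lines was 0.16 (SE 0.19). Rps27rt, a copy of Rps27 with 89.5% of its stretches in other genes, was at 0.67 and 2.57 CPM in DHX35-dTAG cells in DMSO, at 2.48 and 2.56 CPM in dTAG-13, and at 2.65 to 3.49 CPM in GPATCH1-dTAG cells. The difference of 0.56 (SE 0.31, adjusted p = 0.428) was the highest of any member over both treatments, and it was 0.25 (SE 0.18, adjusted p = 0.488) without the low DMSO library. Rpl36al was at 2.33 to 5.84 CPM and Rpl36a at 148 to 187 CPM, with differences between the lines of -0.26 (SE 0.28) and -0.01 (SE 0.08). Rpl3l held at most 0.149% of the counts of its pair with Rpl3.

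The remaining differences between the lines were smaller or rested on replicate 1 of DHX35-dTAG cells in DMSO. In DMSO, after Rps27rt, the highest were Rpl31 (0.70, SE 0.41) and Rpl29 (0.57, SE 0.30), and after Rpl39l the lowest without overlap were Rpl24 (-0.53, SE 0.26) and Rps14 (-0.50, SE 0.20). None of these was called. Without that library they were 0.08 (SE 0.07), 0.09 (SE 0.10), -0.30 (SE 0.30) and -0.05 (SE 0.07). In dTAG-13, where that library takes no part in the difference, Rps10 was 14.7 to 16.3 CPM in DHX35-dTAG cells and 20.02 to 22.1 CPM in GPATCH1-dTAG cells (0.44, SE 0.17, adjusted p = 0.533). With that library left out of the estimate of the spread, the difference of Rps10 in dTAG-13 was called (0.44, SE 0.10, adjusted p = 0.0224), beside 3.87% of all genes. Rpl24 differed by 0.39 (SE 0.28) and Rpl41 by -0.19 (SE 0.13). Over both treatments, Rpl13a was at 42.1 to 45.3 CPM against 47.4 to 51.1 CPM (0.16, SE 0.06, adjusted p = 0.281) and Rps21 at 260.5 to 420 CPM against 246 to 260.01 CPM (-0.28, SE 0.13, adjusted p = 0.35). Without that library, Rps21 differed by -0.08 (SE 0.05) and Rpl13a by 0.17 (SE 0.06), neither of them called.

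Ribosomal proteins outside the pattern deviated in the same library. Fau was at 518 CPM in replicate 1 of DHX35-dTAG cells in DMSO and at 293 to 352 CPM in the other 7 libraries, and Rps3a1 at 492 CPM against 255 to 304 CPM. Rack1 lay between 1368 and 1471 CPM in all 8. None of these 3 was called in any comparison.

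Other genes of ribosome production were looked up from lists of names. On depletion of DHX35 or GPATCH1, no gene of any list was called. The lists hold 18 other mRNAs with a pyrimidine tract (elongation factors, Npm1, Tpt1), 13 regulators of their translation (Mtor, Larp1 and others), 56 ribosome assembly factors, 20 RNA polymerase I genes, 77 tested mitochondrial ribosomal proteins and 91 tested pseudogenes. The assembly factors had a median log2 difference of -0.05 on DHX35 depletion, with 14 of 56 above 0, and of 0.06 on GPATCH1 depletion, with 43 of 56 above 0. For the other pyrimidine-tract mRNAs the medians were -0.01 and 0.02, with 7 and 15 of 18 above 0. The regulators had medians of 0.01 and 0.04, the RNA polymerase I genes -0.01 and 0.03, the mitochondrial ribosomal proteins -0.04 and 0.02, and the pseudogenes -0.07 and 0.06. All these medians lay within 0.1 of the medians over all genes, -0.01 and 0.00. Without the first DMSO replicate of the DHX35-dTAG line, the median on DHX35 depletion was 0.04 for the assembly factors, with 40 of 56 above 0, so its sign turned. It was then 0.06 for the other pyrimidine-tract mRNAs, -0.02 for the regulators, 0.02 for the RNA polymerase I genes, 0.07 for the mitochondrial ribosomal proteins and 0.11 for 97 tested pseudogenes, against 0.00 over all genes, and no listed gene was called on either depletion. No gene of these lists was called between the lines with all libraries. Without that library, 4 assembly factors (Mdn1, Nle1, Nop10 and Nop56) and Pabpc1 were called between the lines over both treatments, against 5.29% of all genes, and in dTAG-13 the same 4 factors, Mrpl49 and the pseudogene Rpl36a-ps2 were, against 3.87%.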

How the data were processed

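The authors removed ribosomal RNA, added human DLD-1 RNA, made stranded libraries, trimmed reads with Trim Galore 0.6.6 and aligned them with STAR 2.7.5c to mm10 and hg19. The deposited values are raw counts per gene, 1 table per library. The submitters' processing notes also name FastQC 0.11.9 and DESeq2 1.26.0. The counting program, its annotation and its strand setting are not given in the sources used here.

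Groups came from the sample labels. The test was that of edgeR 4.0.16 under R 4.3.3 (glmQLFit, glmQLFTest, TMM, filterByExpr, 1 term per group, all 8 libraries in 1 fit, Benjamini-Hochberg adjustment over 16371 genes, threshold 0.05). Standard errors are the log2 difference divided by the square root of F. Total counts were 12014203 to 14994173 and the replicate coefficient of variation 11.2%. Gene models came from GENCODE M21 (GRCm38), using 1 coding transcript per gene, and promoters from RefSeq GRCm38.p6. Copies were searched as shared stretches of 100 bases.

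Members and lists were chosen with earlier results of these data known. The lists of overlap and paralogue classes were made after the values were seen. The genes named are the paralogue pairs, the stalk proteins, Rpsa, Rpl5, Rpl11, Rps6, Rps27a, Rps26, Rpl22, the 5 highest and 5 lowest per kb, every called member, and for each comparison the 3 highest and 3 lowest differences among members of at least 1 CPM without overlap between the groups. Further genes were chosen from their values. The alternatives were DESeq2 1.42.0, its size factors in edgeR, the 4 libraries of a comparison alone, a replicate block, no filter, a minimum of 10 counts per library, removal of Gm23935 and CT010467.1, and each library left out in turn. The scripts were tested on simulated data. Replicates were no duplicates: the chi-square per gene was 4.93 to 121, against 1 for sampling noise. The values of 2 ribosomal protein genes are not reported here.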

Additional observations from a re-analysis of the deposited data

How the results depend on the processing

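The difference of Rpl39l between the lines, the called value among the members, kept its direction under the alternatives run for it. With no expression filter, 10 members were called on DHX35 depletion, 6 for the difference between the responses, 17 between the lines in DMSO, 1 in dTAG-13 and 6 over both treatments, and 1.06%, 0.429%, 3.02%, 0.484% and 2.73% of all genes. Between the lines in DMSO, a minimum of 10 counts and the 4 libraries alone each gave 0 calls, against 0.0285% and 0.0125% of all genes. In dTAG-13, DESeq2 gave 1 (0.287% of all genes) and the 4 libraries alone 2 (2.2%). Leaving out 1 library gave 0 to 59 members called on DHX35 depletion, 0 to 52 for the difference between the responses, 0 to 59 between the lines in DMSO, 0 to 3 in dTAG-13 and 1 to 53 over both treatments. The highest counts, 59, 52, 59 and 53, came when the second DMSO replicate of the DHX35-dTAG line was left out, which leaves the deviating replicate 1 alone in its group. Of all genes, 28.8%, 20.9%, 34.3% and 30% were then called. The medians of the members then ranged from -0.032 to 0.065 on DHX35 depletion, from -0.025 to 0.083 for the difference between the responses and from -0.090 to 0.037 between the lines in DMSO. Leaving Gm23935 and CT010467.1 out of the total moved the members' share to 4.53% and 4.42% in DHX35-dTAG cells in dTAG-13 and to 4.34% in replicate 2 of GPATCH1-dTAG cells in DMSO. The cause of the changed counts was not tested. The difference between replicate 1 and replicate 2 correlated between groups by 0.04 to 0.23 over 16371 genes. With 2 replicates a group this cannot decide whether the numbers pair the samples, and the main test assumed no pairing. With the replicate block, the members called were 0, 0, 0, 1, 0 and 1 in the 6 comparisons, as without it. Rpl3l, Rpl24, Rpl32l and Rps27rt had at most 54 counts in a library, so their differences carry more counting noise. The cause of these low counts was not tested.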
